A study of Mus musculus with 2 samples.

Results

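This report describes 10 genes of glycolysis, the pathway that splits glucose into pyruvate and lactate, across the cell types of 2 single-cell libraries from fibrotic mouse liver. The genes were chosen by symbol: Slc2a1, Hk2, Aldoa, Tpi1, Gapdh, Pgk1, Pgam1, Eno1, Pkm and Ldha, of 32285 gene rows measured. They were chosen because Pgk1 had been seen at a lower level in the endothelial cells of the knockout library, so the endothelial values of Pgk1 are given as a description, and the question is whether the other 9 genes had the same pattern. The cells were non-parenchymal, a fraction that holds the liver's endothelial, immune, mesenchymal and bile duct cells. One library came from wild-type (Mfap2+/+) and 1 from knockout (Mfap2-/-) mice; both groups had intraperitoneal injections of CCl4 (carbon tetrachloride, a solvent that injures hepatocytes and scars the liver when given repeatedly) for 8 weeks. Mfap2 encodes a glycoprotein of extracellular microfibrils. Strain, sex, age and the number of animals per library are not given in the sources used here. Because each genotype has 1 library, no test between them was possible, and genotype, animal and library preparation cannot be told apart. The 95% intervals below cover counting error only.

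Glycolysis begins when glucose enters the cell through transporters such as the Slc2a1 product (GLUT1) and is trapped by hexokinases such as Hk2. Aldolase (Aldoa) and triose phosphate isomerase (Tpi1) yield 3-carbon sugars, and Gapdh and Pgk1 then carry out the steps that recover the first ATP. Pgam1, Eno1 and Pkm convert the product to pyruvate, and Ldha reduces pyruvate to lactate. Endothelial cells rely heavily on this pathway for ATP. Many of its genes are induced in low oxygen by hypoxia-inducible factors (HIF). The letters ACGTG are among the short cores at which HIF bind DNA, and only ACGTG was searched for here.

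The promoters of 4 of the genes are shown because 3 of these genes were lower in knockout endothelial-like cells and the fourth, Slc2a1, was not. Each sequence runs from 250 bases before to 50 bases after a RefSeq transcription start (build GRCm38.p6), and capitals mark each match to ACGTG on either strand.
Pgk1, chrX:106186850-106187149, + strand: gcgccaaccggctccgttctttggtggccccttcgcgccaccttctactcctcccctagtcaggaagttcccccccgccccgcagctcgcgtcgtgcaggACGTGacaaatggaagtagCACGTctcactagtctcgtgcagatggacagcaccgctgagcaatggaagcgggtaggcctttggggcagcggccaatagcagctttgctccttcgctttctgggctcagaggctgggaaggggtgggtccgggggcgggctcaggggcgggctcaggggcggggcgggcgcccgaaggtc
Ldha, chr7:46845554-46845853, + strand, first of 2 starts: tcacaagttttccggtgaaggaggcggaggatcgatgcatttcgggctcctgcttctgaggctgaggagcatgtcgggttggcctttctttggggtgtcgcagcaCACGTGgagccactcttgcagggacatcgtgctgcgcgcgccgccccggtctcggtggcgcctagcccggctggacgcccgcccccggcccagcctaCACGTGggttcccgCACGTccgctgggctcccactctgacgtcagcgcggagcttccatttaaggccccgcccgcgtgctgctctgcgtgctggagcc
Eno1, chr4:150236458-150236757, + strand, first of 3 starts: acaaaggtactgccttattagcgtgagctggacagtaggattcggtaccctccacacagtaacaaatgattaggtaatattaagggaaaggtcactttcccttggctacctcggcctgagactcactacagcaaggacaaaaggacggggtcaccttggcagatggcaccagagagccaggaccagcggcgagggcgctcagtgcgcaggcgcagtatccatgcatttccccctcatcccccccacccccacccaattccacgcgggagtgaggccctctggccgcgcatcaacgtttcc
Slc2a1, chr4:119108495-119108794, + strand: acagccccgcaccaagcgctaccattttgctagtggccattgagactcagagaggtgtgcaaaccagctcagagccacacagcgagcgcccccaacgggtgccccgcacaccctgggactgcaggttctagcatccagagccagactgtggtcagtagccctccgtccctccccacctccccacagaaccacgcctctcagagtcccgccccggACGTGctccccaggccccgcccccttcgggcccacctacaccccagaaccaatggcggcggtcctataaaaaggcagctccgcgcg
The Pgk1 window held ACGTG at 150 bases before the start on the + strand and at 131 bases before it on the opposite strand (positions -150 and -131). The first Ldha window held 5 matches, at -145, -144, -48, -47 and -34. Of these, 2 pairs overlapped, because the letters CACGTG read the same on both strands. Slc2a1 held 1 match, at -36. None of the 3 Eno1 windows held ACGTG, nor did that of Tpi1. Other HIF cores were not searched for, so these windows may hold them. All 10 genes had a RefSeq entry, with 16 promoters in all, of which 9 held the motif. Among the 9 are overlapping Aldoa windows that hold the same match, at -126 and -202 from their starts, so this match is counted more than once. Over all 32851 promoters of the same length, 19.6% held ACGTG and 8.21% held it at 2 or more places. A match describes the letters of the window and is neither a binding site nor a cause.

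In the wild-type library there were 11783 barcodes with 82499307 UMIs (unique molecular identifiers, each standing for 1 captured RNA molecule), and in the knockout library 12872 barcodes with 118226367 UMIs. The median depth was 4685 and 6511 UMIs per barcode. After filters, 10336 and 11428 cells were kept. The targeted gene was checked first: Mfap2 had 215 UMIs over all wild-type cells and 2 over all knockout cells. The libraries shared 40 barcode sequences, and leaving these cells out gave an endothelial Pgk1 log2 ratio of -1.20, as with them. Clusters were named from marker genes, and the 11 classes with at least 50 cells in both libraries were used. Levels are given as CPM, UMIs per 1e6 UMIs of a class, and a log2 ratio compares the knockout with the wild-type level after adding 1 count to both sums. Since most tags come from the 3′ ends of transcripts, levels were compared within a gene and not between genes.

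The endothelial-like class had 1222 wild-type and 1621 knockout cells, with median depths of 4282 and 6196 UMIs. The class was named from a list of 13 markers. Some of them are given here, and their high levels against other cells follow from the naming and do not test it. Pecam1 stood at 597 CPM in wild-type and 584 CPM in knockout endothelial-like cells, against 132 and 176 CPM in the other cells. Cdh5, an endothelial cadherin, stood at 489 and 376 CPM, against 41.1 and 18.2 CPM elsewhere. Kdr stood at 643 and 657 CPM, against 9.65 and 13.3 CPM elsewhere. Stab2, a scavenger receptor of sinusoidal endothelium, stood at 1804 and 2275 CPM, against 29.5 and 42.9 CPM elsewhere. Markers of other classes were present in the class too, and the sums of some of these lists are given after the results.

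In endothelial-like cells, 8 of the 10 genes were lower in the knockout library by at least 1.5-fold: the enzymes from Aldoa to Ldha. Pgk1, on whose low value the set was chosen, is among them and enters the counts, sums and medians of these genes. Apart from Pgk1, those past 1.5-fold were Aldoa, Tpi1, Gapdh, Pgam1, Eno1, Pkm and Ldha. The glucose transporter Slc2a1 and hexokinase Hk2, which stand at the entry of the pathway, were not. The median log2 ratio of the 10 genes was -0.89, and all 10 had the 20 UMIs over both libraries asked of a tested gene. Among all 13748 genes with that many UMIs in these cells, the median ratio was -0.03 and 12.8% were lower by at least 1.5-fold. Of the 3863 genes with a mean level of at least 50 CPM, a range chosen after the values were seen, 11.1% were lower by that much. Another 10.8% of all genes tested were higher by at least 1.5-fold, and none of the 10 was among them. The 8 enzymes together summed to 1751 CPM in the wild-type and 899 CPM in the knockout library, a log2 ratio of -0.96. This grouping of 8 against 2 was made after the values were seen.

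**Figure D1:**
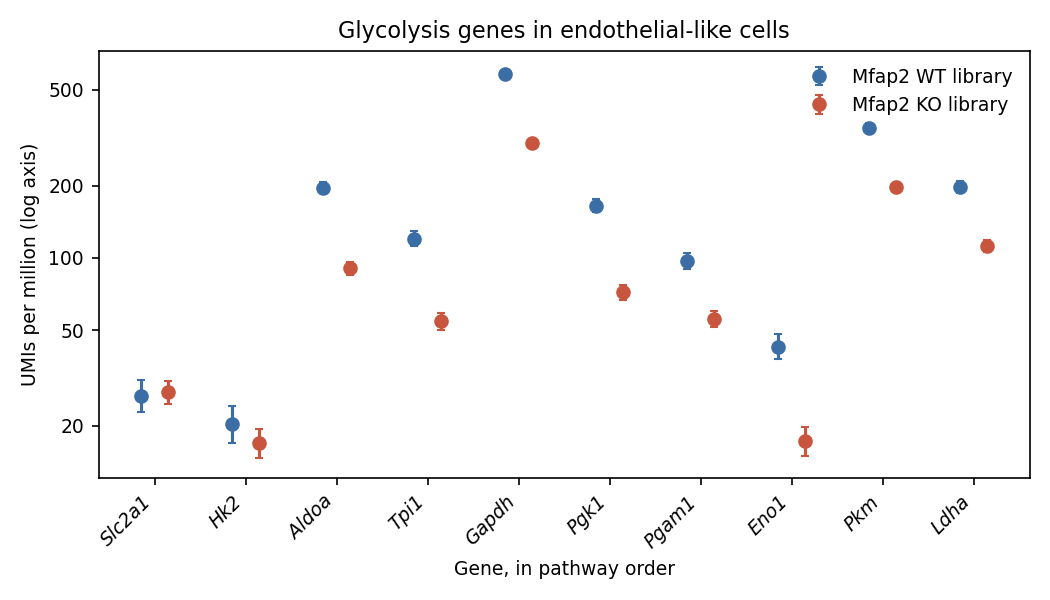
Level of each gene in endothelial-like cells, in UMIs per 1e6 (CPM) on a log axis, in the wild-type (blue) and knockout (red) library. Points are the class level of 1 library and bars are 95% Poisson intervals, which cover counting error only. From Aldoa to Ldha the red points lie below the blue ones with no overlap of bars, while the bars of Slc2a1 and Hk2 overlap.

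Slc2a1 (ENSMUSG00000028645, chr4:119108711-119137983), the glucose transporter, was at 26.7 CPM in wild-type and 27.5 CPM in knockout endothelial-like cells. Its log2 ratio of 0.04 (-0.23 to 0.33) had an interval on both sides of 0. Hk2 (ENSMUSG00000000628, chr6:82725025-82774454), which phosphorylates glucose, was at 20.4 and 16.9 CPM, a log2 ratio of -0.27 (-0.60 to 0.06). Over the whole class, neither entry gene differed between the libraries beyond counting error. Both were sparse, with 166 and 319 UMIs for Slc2a1 and 127 and 196 UMIs for Hk2. Under the 16 alternative settings their ratios ran from -0.11 to 0.40 and from -0.82 to 0.02, so no direction is given for either. Slc2a1 lies opposite Gm12867 and Gm12868, and Hk2 opposite Gm17034, and whether counting used strand is not given in the sources used here.

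In the middle of the pathway the levels in the knockout library were below those of the wild type by about as much for each gene. Aldoa (ENSMUSG00000030695, chr7:126795234-126800751) was at 196 CPM in the wild-type and 90.5 CPM in the knockout library, a log2 ratio of -1.12 (-1.24 to -0.995). A second row with the symbol Aldoa, ENSMUSG00000114515, had 0 UMIs in endothelial-like cells of both libraries. Tpi1 (ENSMUSG00000023456, chr6:124810586-124814296), which interconverts the triose phosphates made by aldolase, was at 120.1 and 54.4 CPM, a log2 ratio of -1.14 (-1.30 to -0.99). Gapdh (ENSMUSG00000057666, chr6:125161715-125166467), which oxidises glyceraldehyde 3-phosphate, was at 585 and 301 CPM, a log2 ratio of -0.96 (-1.03 to -0.89). These 3 genes had intervals well below 0 that overlapped one another in part. Aldoa overlaps Fam57b, Tpi1 overlaps Spsb2 and Gapdh overlaps Iffo1, each on the opposite strand.

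Pgk1 (ENSMUSG00000062070, chrX:106187100-106203699), which transfers phosphate from 1,3-bisphosphoglycerate to ADP, was the gene the set was built on. It had 1026 UMIs, or 165 CPM (155 to 175), in wild-type endothelial-like cells. In knockout cells it had 832 UMIs, or 71.8 CPM (67.0 to 76.8), a log2 ratio of -1.20 (-1.33 to -1.07). Eno1 (ENSMUSG00000063524, chr4:150236721-150248879), the enolase, had the lowest ratio of the 10, from 42.7 CPM to 17.3 CPM, a log2 ratio of -1.31 (-1.58 to -1.04). The intervals of Pgk1, Eno1, Tpi1 and Aldoa overlapped, so counting error does not order these 4 genes. Eno1 has a near-copy, Eno1b, with 36 and 15 UMIs in the same cells, and how reads shared by the copies were counted is not given in the sources used here. The Eno1 ratio also varied most among the 8 enzymes when cells were weighted differently: it was -0.90 as a mean of per-cell values and -0.66 after each cell was thinned to 1000 UMIs.

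The other enzymes after Pgk1 were Pgam1, Pkm and Ldha. Pgam1 (ENSMUSG00000011752, chr19:41911923-41918660), the phosphoglycerate mutase, was at 97.2 and 55.7 CPM, a log2 ratio of -0.80 (-0.96 to -0.64). Pkm (ENSMUSG00000032294, chr9:59656368-59679375), the pyruvate kinase, was at 348 and 196 CPM, a log2 ratio of -0.83 (-0.91 to -0.74). Ldha (ENSMUSG00000063229, chr7:46841475-46855627), lactate dehydrogenase A, was at 197 and 112 CPM, a log2 ratio of -0.81 (-0.93 to -0.70). These 3 ratios lay within counting error of one another. All positions are on GRCm38, and the 10 genes are protein-coding genes on 6 chromosomes.

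The lower level was spread over the cells. Of the wild-type Pgk1 UMIs in the class, the 5 richest cells held 4.0%, and of the knockout UMIs 3.97%. For the other genes these cells held between 3.05% (Pkm) and 10.2% (Hk2) of the wild-type UMIs, and between 2.53% (Gapdh) and 12.2% (Hk2) of the knockout UMIs. Among endothelial-like cells with at least 5000 UMIs, the 8 enzymes summed to a median of 1735 UMIs per 1e6 in 537 wild-type cells, with a 10th percentile of 951 and a 90th of 2637. In 974 knockout cells the median was 839, the 10th percentile 385 and the 90th 1488. Of these knockout cells, 95.5% lay below the wild-type median. The cells counted here are part of the 1222 wild-type and 1621 knockout cells of the class. The 8 enzymes were grouped by their low values in this same class and include Pgk1, so a lower knockout sum was built in. Cells of a library are not replicates, and this comparison was added after the class values were seen.

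**Figure D2:**
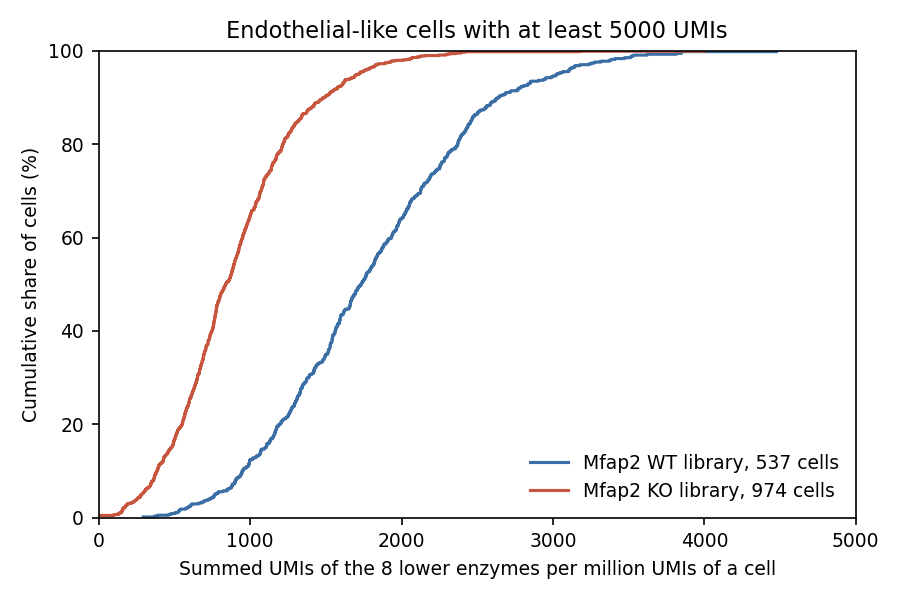
Cumulative share of endothelial-like cells with at least 5000 UMIs (vertical axis, percent) against the summed UMIs of the 8 enzymes per 1e6 UMIs of a cell (horizontal axis), for 537 wild-type (blue) and 974 knockout (red) cells. The knockout curve lies to the left, with medians of 839 and 1735 CPM.

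The endothelial-like class was made of 4 clusters, and Pgk1 was lower in the knockout library in each of the 3 with at least 50 cells in both libraries. The clusters are parts of the class whose low values chose Pgk1 and grouped the 8 enzymes. Their low values are therefore a description and not separate support. The largest cluster, with the sinusoidal genes Stab2, Lyve1 and Clec4g among its 10 leading genes, held 565 wild-type and 973 knockout cells. Its Pgk1 level was 176 CPM in the wild-type and 69.3 CPM in the knockout library, a log2 ratio of -1.35 (-1.51 to -1.18). In this cluster all 8 enzymes had intervals below 0, from -0.88 for Pgam1 to -1.39 for Eno1. A cluster with Selp, Rspo3, Bmp4 and Vwf among its leading genes held 229 and 212 cells. Its Pgk1 level was 149.8 and 77.0 CPM, a log2 ratio of -0.96 (-1.25 to -0.67). There too all 8 enzymes had intervals below 0, from -0.65 for Pkm to -1.75 for Eno1. Hk2 was at 26.9 and 16.9 CPM in this cluster, a log2 ratio of -0.66 (-1.34 to -0.02), from 48 and 36 UMIs. In each other endothelial-like cluster the Hk2 interval included 0, and that of Slc2a1 did so in every cluster.

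A further cluster had few UMIs per cell, with medians of 1294 (wild type) and 1480 (knockout), and Stab2 levels of 2358 and 2541 CPM. It held 388 and 389 cells. Pgk1 was at 154 and 68.5 CPM there, a log2 ratio of -1.16 (-1.72 to -0.64), from 87 and 45 UMIs. The intervals of Eno1 (0.24, -0.76 to 1.33) and Pgam1 (-0.40, -1.02 to 0.21) included 0 in this cluster, while the other 6 enzymes had intervals below 0. Without this cluster the Pgk1 ratio of the class was -1.20 and that of Eno1 was -1.44. The smallest cluster, with Gja5 and Mecom among its leading genes, held 40 and 47 cells and is given as a value only. Pgk1 was at 139 and 98.4 CPM there, a log2 ratio of -0.50 (-1.14 to 0.15), and Pkm was at 142 and 136 CPM. The mix of clusters differed between libraries. With the knockout values weighted to the wild-type mix, the Pgk1 ratio of the class was -1.18.

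Pgk1 was lower in the knockout library in each of the 11 classes, with the lowest ratio in the endothelial-like class under scaling by class totals. Under scaling by the median of ratios it was -1.17 there, above the macrophage-like (-1.26) and mesenchymal-like (-1.21) values. By class totals the Pgk1 log2 ratio was -1.13 (-1.22 to -1.04) in macrophage-like cells, -1.07 (-1.41 to -0.74) in mesenchymal-like cells and -1.02 (-1.25 to -0.79) in neutrophil-like cells. The intervals of these 3 classes overlapped that of the endothelial-like class. It was -0.72 in monocyte-like, -0.64 in cholangiocyte-like and -0.57 in conventional dendritic-like cells. The smallest differences were -0.45 in plasma-like cells (-0.95 to 0.06, an interval that includes 0), -0.44 in B-like, -0.36 in NK or innate lymphoid-like and -0.35 in T-like cells. Differences between classes were not tested.

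The order of Pgk1 levels over the classes differed between the libraries at its middle. In the wild-type library monocyte-like cells were highest at 235 CPM, above neutrophil-like cells at 173 CPM and endothelial-like cells at 165 CPM, whose intervals overlapped. Macrophage-like cells followed at 133 CPM, with an interval apart from those on either side. Next came conventional dendritic-like (112 CPM), T-like (105 CPM), NK or innate lymphoid-like (92.7 CPM), plasma-like (88.4 CPM), cholangiocyte-like (81.8 CPM) and mesenchymal-like cells (68.3 CPM), each within counting error of its neighbour. B-like cells were lowest at 51.3 CPM.

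In the knockout library monocyte-like cells were again highest, at 143 CPM. Neutrophil-like (85.4 CPM), T-like (82.5 CPM), conventional dendritic-like (75.3 CPM), NK or innate lymphoid-like (72.0 CPM), endothelial-like (71.8 CPM), plasma-like (64.8 CPM), macrophage-like (60.7 CPM) and cholangiocyte-like cells (52.4 CPM) followed, with no gap between neighbours. B-like cells at 37.8 CPM and mesenchymal-like cells at 32.5 CPM were lowest. Endothelial-like cells, close to the top in the wild-type library, thus shared their level with several lymphoid and myeloid classes in the knockout library.

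The 8 enzymes were grouped by their low endothelial values, so their signs were counted over the 10 other classes. There 79 of 80 log2 ratios were below 0, and 72 had intervals below 0. Among all genes tested, between 36.4% (NK or innate lymphoid-like) and 43.7% (conventional dendritic-like) had ratios below 0 in these classes. These shares cover genes of all spans, and genes that span under 10 kb had medians below 0 in each class, as given below. The share of all genes with intervals below 0 was not computed, so the interval counts here and below have no background. The exception among the 80 ratios was Aldoa in plasma-like cells, at 91.1 CPM in the wild-type and 125 CPM in the knockout library (0.45), from 53 and 56 cells. It was the only exception under either other scaling of the class totals as well. All-gene medians ranged from -0.03 in endothelial-like to 0.16 in plasma-like cells. Scaling by the median of ratios moved all ratios of a class by between 0.03 (endothelial-like) and -0.16 (plasma-like), and by -0.13 in macrophage-like cells. The endothelial-like class had the lowest ratio for 6 of the 10 genes: Aldoa, Tpi1, Gapdh, Pgk1, Eno1 and Pkm. For Pgam1 and Ldha it was the macrophage-like class. Under the median of ratios the endothelial-like class was lowest for 4 genes, and the macrophage-like class for Pgk1 (-1.26) and Pkm (-0.84) as well.

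**Figure D3:**
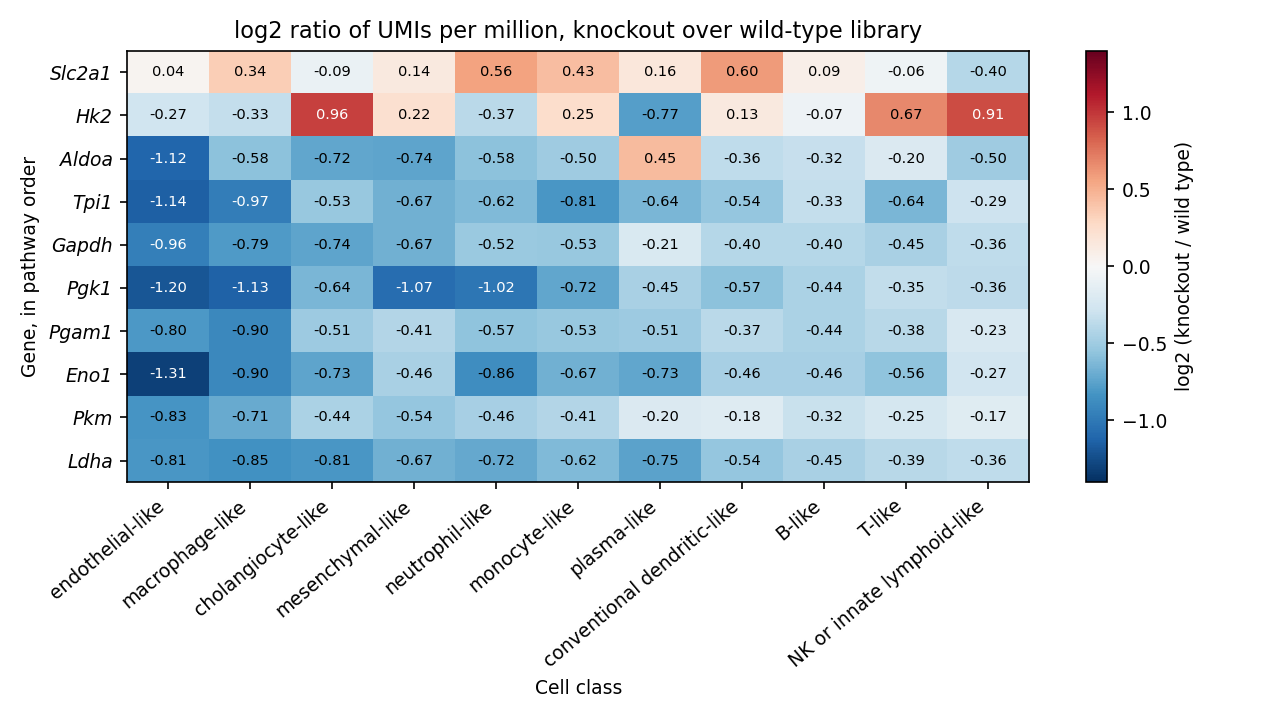
Log2 ratio of knockout over wild-type CPM for the 10 genes (rows, in pathway order) in 11 cell classes (columns); blue is lower and red is higher in the knockout library. The 8 lower rows are blue in each class apart from Aldoa in plasma-like cells (0.45), while Slc2a1 and Hk2 hold both colours.

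The number of the 10 genes past 1.5-fold was read against the share of all genes past it in the same class. Macrophage-like cells had 7 of the 10 genes lower by at least 1.5-fold, with 5.28% of all genes tested in that class as the background. Cholangiocyte-like cells had 5 (background 8.17%) and mesenchymal-like cells 5 (8.75%). Neutrophil-like cells had 4 (7.52%), monocyte-like cells 4 (5.81%) and plasma-like cells 4 (7.15%), of which only Ldha had an interval below 0. T-like cells had 1, Tpi1 (6.62%). B-like (6.13%), NK or innate lymphoid-like (5.61%) and conventional dendritic-like cells (5.91%) had none. The medians of the 10 genes in these last 3 classes were -0.37, -0.32 and -0.39, against all-gene medians of 0.08, 0.15 and 0.07. Over all cells kept, whatever their class, 7 of the 10 were lower by at least 1.5-fold, with a background of 6.02% and a median of -0.65.

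Macrophage-like cells, with 2303 wild-type and 2246 knockout cells, held the most UMIs of any class. The class was made of 4 clusters in different shares. A cluster led by the Kupffer cell genes Marco and Clec4f held 921 wild-type and 311 knockout cells, and a cluster with Ccl12 and Ms4a7 among its leading genes held 839 and 1514. The Pgk1 log2 ratio within these clusters was -1.12 (-1.30 to -0.95) and -0.84 (-0.97 to -0.70). In the other clusters, with 301 and 265 cells and with 242 and 156 cells, it was -0.75 and -0.54, so each cluster had a smaller difference than the class value of -1.13. The cluster of 242 and 156 cells also had Marco and Clec4f among its leading genes. It had few UMIs per cell, with medians of 995 (wild type) and 1121.5 (knockout). All 8 enzymes had ratios below 0 in each of the 4 clusters. The ratios ran from -1.12 to -0.58 in the larger Marco and Clec4f cluster and from -0.84 to -0.60 in the Ccl12 and Ms4a7 cluster. In the cluster of 301 and 265 cells they ran from -0.75 to -0.12. In that of 242 and 156 cells they ran from -0.96 to -0.05, and 6 of the 8 intervals lay below 0. Over the class the 8 enzymes summed to 2474 CPM in the wild-type and 1419 CPM in the knockout library, a log2 ratio of -0.80. Gapdh was at 987 and 569 CPM, a log2 ratio of -0.79. Tpi1 was at 175 and 89.4 CPM, a log2 ratio of -0.97. Pgam1 was at 202 and 108 CPM and Ldha at 286 and 158 CPM, with ratios of -0.90 and -0.85. All 8 intervals lay below 0 in this class. Aldoa had the smallest difference of the 8, at 274 and 184 CPM (-0.58). The per-cell pattern was like that of the endothelial-like cells: with at least 5000 UMIs per cell, the 8 enzymes had a median of 2214 UMIs per 1e6 in wild-type and 1204 in knockout macrophage-like cells. In neutrophil-like cells with at least 2000 UMIs these medians were 2347 and 1420.

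Of the 11 classes, monocyte-like cells had the highest wild-type level of Aldoa, Gapdh, Pgk1, Pgam1, Eno1 and Pkm, and kept the highest level of these 6 genes in the knockout library. Gapdh stood at 1359 and 939 CPM there, and Pkm at 528 and 396 CPM. For Aldoa the interval overlapped that of neutrophil-like cells in both libraries. The monocyte-like class was 1 cluster of 420 wild-type and 366 knockout cells, with Ly6c2 and Ccr2 among its raised markers. A larger cluster, with Ace, Cd300e and Eno3 among its leading genes, held 742 and 1096 cells. That cluster stayed unnamed and is in no class, so its levels are not ranked here. Ldha was highest in macrophage-like cells of the wild-type library (286 CPM) and in conventional dendritic-like cells of the knockout library (179 CPM, within counting error of monocyte-like cells at 164 CPM). Tpi1 was highest in wild-type macrophage-like cells (175 CPM) and in knockout cholangiocyte-like cells (90.5 CPM, within counting error of macrophage-like cells). Endothelial-like cells had the lowest Aldoa level of the 11 classes in the knockout library, 90.5 CPM, within counting error of B-like cells at 97.7 CPM. Pkm was lowest in cholangiocyte-like cells in both libraries, at 77.2 and 56.9 CPM.

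The entry genes behaved unlike the enzymes. Slc2a1 was highest in neutrophil-like cells in both libraries, at 99.0 and 146 CPM, a log2 ratio of 0.56. The wild-type interval overlapped that of cholangiocyte-like cells (81.1 CPM). The Slc2a1 ratios had intervals above 0 in 4 classes, among them conventional dendritic-like (24.3 and 37.1 CPM, 0.60) and monocyte-like cells (73.6 and 99.4 CPM, 0.43). In NK or innate lymphoid-like cells it was lower in the knockout library, at 70.2 and 53.2 CPM (-0.40). Hk2 was highest in mesenchymal-like cells by a wide margin, at 324 and 378 CPM (0.22, 0.10 to 0.34). Macrophage-like cells had the next wild-type level, 79.7 CPM, and were at 63.4 CPM in the knockout library (-0.33). In T-like cells Hk2 was at 24.1 and 38.6 CPM (0.67), and in NK or innate lymphoid-like cells at 11.5 and 21.7 CPM (0.91). Both entry genes thus had ratios of either sign, while 7 of the 8 enzymes were below 0 in each class.

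Across the 11 classes, Pkm was among the 5 genes whose ratios tracked those of Pgk1 most closely, out of 1871 genes with a mean endothelial level of at least 100 CPM and at least 20 UMIs in each class. The 5 were Rac1 (Pearson's r of 0.95), Ywhab (0.93), Atp5f1 (0.93), Srp14 (0.92) and Pkm (0.91). Their ranges were narrower than that of Pgk1: Rac1 ran from -0.45 to -0.04 and Atp5f1 from -0.62 to -0.18, against -1.20 to -0.35 for Pgk1. The other enzymes had r between 0.67 (Aldoa) and 0.81 (Gapdh), Hk2 had 0.42 and Slc2a1 -0.40. How r was spread over the 1871 genes is not given, so whether the values of the enzymes are unusual cannot be seen. The 11 points include the endothelial Pgk1 value on which the set was chosen. They also share the same 2 libraries and their depth, so these values are descriptions.

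The other genes of glycolysis had ratios of both signs. Of 23 listed genes, 19 had at least 20 UMIs in endothelial-like cells; 5 of the 19 were lower by at least 1.5-fold and 1 was higher, and 13 had ratios below 0. Their median was -0.29, between that of the 10 genes and the all-gene median of -0.03. Pfkl, the liver-type phosphofructokinase, was at 73.1 and 44.4 CPM (-0.72, -0.91 to -0.54). Gpi1, the glucose-6-phosphate isomerase, was at 154 and 113 CPM (-0.44, -0.56 to -0.32). Other upstream genes had ratios above 0: Hk1, a second hexokinase, was at 66.2 and 78.1 CPM (0.24), and Pfkp, another phosphofructokinase, at 36.6 and 47.2 CPM (0.36). Pfkfb3, which makes the activator of phosphofructokinase, was at 58.6 and 100.4 CPM (0.77, 0.61 to 0.95). Slc16a1 (0.22, -0.05 to 0.50), a lactate transporter, and Ldhb (-0.09, -0.36 to 0.19) had intervals that included 0.

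Neighbouring routes of carbon metabolism were compared with all genes tested in these cells, of which 52.5% had ratios below 0 and 12.8%, as above, were lower by at least 1.5-fold. The interval counts of the lists have no such background. In the pentose phosphate pathway, all 7 genes had ratios below 0, 5 with intervals below 0 and 4 past 1.5-fold. The median was -0.61, and Pgls, its lactonase, was at 118 and 64.9 CPM (-0.86). Pyruvate oxidation and the citric acid cycle had 22 of 23 genes below 0, 17 with intervals below 0, with a median of -0.37, and 3 genes past 1.5-fold, a share near the background. Sdhc, a subunit of succinate dehydrogenase, was the lowest there, at 53.3 and 32.96 CPM (-0.69). The nuclear-encoded respiratory chain had all 23 genes below 0 with intervals below 0, and 14 past 1.5-fold, with a median of -0.65. Ndufs3 of complex I was at 69.2 and 35.2 CPM (-0.98), and Cox6c of complex IV at 322 and 167 CPM (-0.95). Both values were close to that of Gapdh. Of the 8 gluconeogenic and hepatic genes only 5 had at least 20 UMIs, with a median of 0.37, and Khk was at 25.5 and 22.2 CPM (-0.21, -0.49 to 0.09).

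Genes known to be induced in hypoxia, other than the 10, had ratios of both signs. Of 26 listed genes, 3 of which also stand among the 23 above, 25 had at least 20 UMIs; 9 had intervals below 0 and 4 above 0, and the median was -0.17. Mif, a cytokine, was at 95.9 and 49.0 CPM (-0.97), Anxa2 at 208 and 120.5 CPM (-0.79) and Higd1a, a mitochondrial protein, at 77.3 and 47.1 CPM (-0.71). In the other direction, P4ha1, a collagen prolyl hydroxylase subunit, was at 240.3 and 417 CPM (0.80), and Mxi1 at 86.6 and 129 CPM (0.58). Among regulators of the HIF pathway, 9 of 10 passed the UMI minimum, with 3 intervals below 0 and 2 above 0. Hif1a was at 188 and 146 CPM (-0.37, -0.48 to -0.26) and Egln1, the prolyl hydroxylase that marks HIF for degradation, at 63.0 and 46.4 CPM (-0.44). Epas1, which encodes HIF-2 alpha, was at 266 and 354 CPM (0.41), and Arnt, the partner subunit, at 109 and 165 CPM (0.60).

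**Figure D4:**
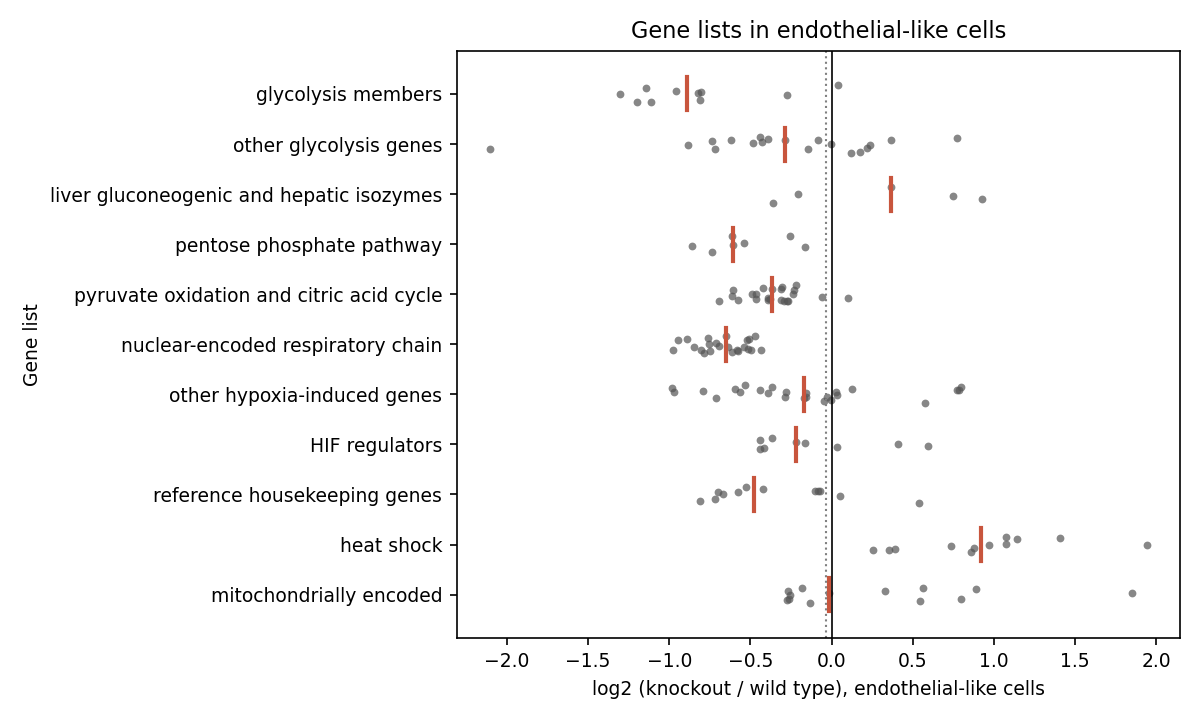
Log2 ratio of knockout over wild type in endothelial-like cells (horizontal axis) for the genes of each list with at least 20 UMIs, 1 point per gene. Red bars are list medians and the dotted line is the median of all genes tested (-0.03); the 10 genes have a median of -0.89, the respiratory chain -0.65 and heat shock genes 0.92.

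Several measures of the cells moved with the genotype alongside these ratios, and their part in the glycolysis result was not tested. Of 12 genes in common use as references, 8 had intervals below 0 and 2 above 0, with a median of -0.48: Rplp0 had a ratio of -0.81, Actb -0.72, Tubb5 -0.70 and Ppia -0.67. All 12 heat shock genes had intervals above 0, and their summed level was 6695 and 12283 CPM. Hsph1, a chaperone, was at 330 and 1267 CPM (1.94), and Hspa1b, an inducible HSP70 gene, at 1515 and 3339 CPM (1.14). Of nuclear RNAs, Malat1 was at 12765 and 16729 CPM (0.39) and Neat1 at 597 and 920 CPM (0.62). Mitochondrially encoded transcripts summed to 39316 and 35499 CPM.

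Markers of other cell types also differed between the libraries within the endothelial-like class. The 7 erythroid markers summed to 767 CPM in the wild-type and 190 CPM in the knockout library, all 7 lower. The 9 hepatocyte markers summed to 169 and 294 CPM, with 8 higher. The 12 mesenchymal markers summed to 396 and 766 CPM, with 5 higher, and the 7 cycling markers to 100.2 and 218 CPM, all 7 higher. The 13 macrophage markers summed to 1953 and 1793 CPM, with 3 higher, and the 8 neutrophil markers to 1021 and 728 CPM, with 2 higher. The 7 plasmacytoid dendritic markers summed to 1634 and 1770 CPM, against 497 and 657 CPM in the other cells. For the 10 conventional dendritic markers the sums were 566 and 568 CPM, against 464 and 550 CPM. The 9 NK or innate lymphoid markers summed to 65.7 and 32.1 CPM, with 8 lower. Sums of the remaining lists are not given. The 13 endothelial markers summed to 9199 and 9558 CPM, with 5 higher and 8 lower in the knockout library. The part of these other markers in the result was not tested.

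The span of a gene on the genome also moved with its ratio in endothelial-like cells, a description added after the values were seen. Of 6620 genes with a mean of at least 20 CPM and an annotated span, the 1292 that span under 10 kb had a median log2 ratio of -0.46, and 33.5% of them were lower by at least 1.5-fold. The median was -0.17 for 1843 genes of 10 to 30 kb and 0.11 for 2250 genes of 30 to 100 kb. For 1235 genes of 100 kb and over it was 0.30. Short genes thus had lower ratios, and 8 of the 10 glycolysis genes, the 8 lower enzymes, span at most 23 kb. This was so in each of the 11 classes: the median of genes under 10 kb ran from -0.11 in plasma-like to -0.46 in endothelial-like cells, and that of genes of 100 kb and over from 0.25 in B-like to 0.59 in cholangiocyte-like cells.

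The place of each gene among the others of its span range is given as a description, since the 8 enzymes were grouped by these same ratios and Pgk1 was the gene the set was chosen on. Pgk1 spans 16.6 kb, and 0.217% of the 1842 other genes of 10 to 30 kb were at or below it. For Eno1, which spans 12.2 kb, the share of that range was 0.0543%. For Pkm (23 kb) that share was 2.06% and for Ldha (14.2 kb) 2.39%. Among genes under 10 kb, 1.70% were at or below Aldoa, 1.55% at or below Tpi1, 3.33% at or below Gapdh and 10.1% at or below Pgam1. Hk2, of 49.4 kb, had 11.6% of its range at or below it, and Slc2a1, of 29.3 kb, had 71.1%. These shares describe the 2 libraries and are not tests, and the part of gene span in the ratios was not tested.

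**Figure D5:**
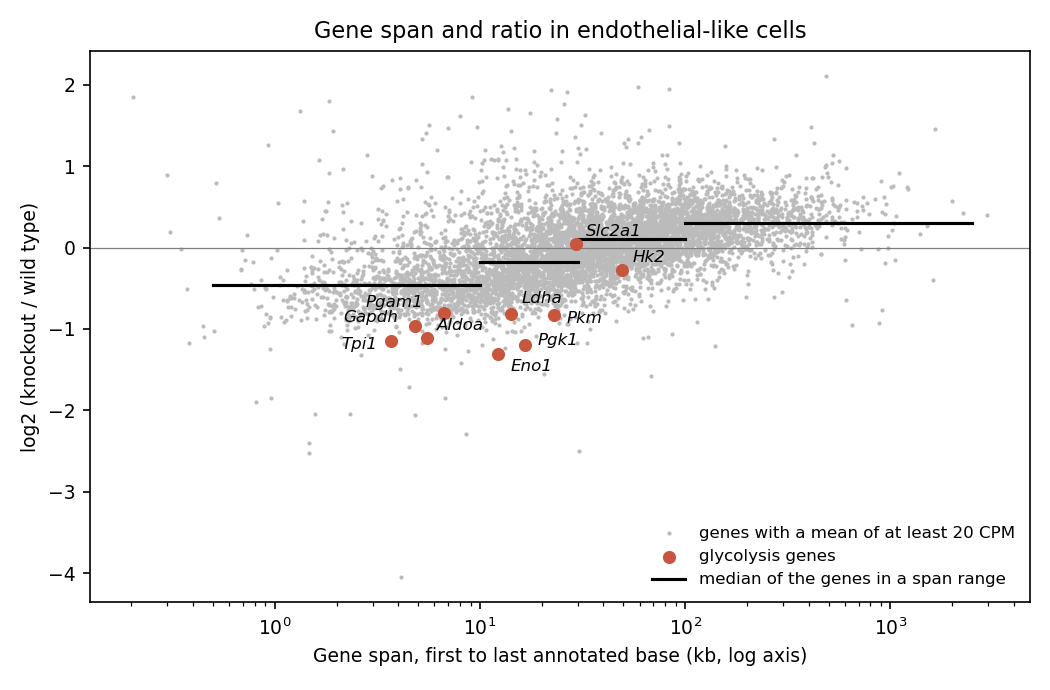
Log2 ratio of knockout over wild type in endothelial-like cells (vertical axis) against gene span in kb (log axis) for genes with a mean of at least 20 CPM (grey), the 10 glycolysis genes (red, named) and the median of each span range (black lines). The medians go from -0.46 under 10 kb to 0.30 at 100 kb and over, and the 8 enzymes lie below the line of their range.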

How the data were processed

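The deposited matrices hold raw UMI counts for each gene in each barcode, which the authors made from a droplet protocol that tags the 3′ ends of transcripts, per the labels' protocols. Per the file headers they come from Cell Ranger 7.0.1, while the submitters' processing notes name Cell Ranger 3.1.0, Seurat and mm10; the use of intronic reads, the annotation and the strand setting are not given in the sources used here. Positions came from GENCODE M21 (GRCm38), which lists 99.6% of the identifiers.

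Barcodes under 200 genes or over 20% mitochondrial UMIs were left out. Doublets were scored with Scrublet (scanpy 1.11.5), and the top 0.8% per 1000 cells were removed (1034 wild-type and 1295 knockout cells). Both libraries were clustered together (2000 variable genes, 30 components, 15 neighbours, Leiden resolution 1, leidenalg 0.10.2) with the genes of all lists left out, which gave 36 clusters. A class name needed 3 or more markers, each 2-fold above the other cells and present in 10% or more of a cluster's cells; 7 clusters stayed unnamed (15.2% of wild-type and 14.7% of knockout cells).

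UMIs were summed per class and library. Intervals at 95% are exact Poisson intervals for CPM and exact conditional intervals for ratios. Genes named from other lists were up to 4 with the highest and 4 with the lowest endothelial ratio at a mean of at least 20 CPM. Members, lists and tests were chosen with earlier results of these data known. On simulated endothelial-like sums of 13544 genes, drawn as Poisson counts, the true ratio lay inside 95.6% of intervals. The sign was right for 99.5% of 195 genes that had been changed. Coverage near 95% was built in by the Poisson draws, so this checks only the computation. The simulation held no variation between cells, animals or libraries. Alternatives covered doublets, cell filter, clustering, classes, scaling, depth, cell weighting and pseudocount. No paired analysis was possible because each genotype has 1 library.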

Additional observations from a re-analysis of the deposited data

Results flagged for a closer look

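For 3 genes the ratios of 2 cell classes lay on opposite sides of 0 with counting intervals that excluded 0 on each side. The difference was not tested, since each genotype has 1 library. For Slc2a1 the log2 ratio was 0.60 in conventional dendritic-like and -0.40 in NK or innate lymphoid-like cells, a difference of 0.99; 4 classes had intervals above 0 and 1 below. For Hk2 it was 0.96 in cholangiocyte-like cells (5.37 CPM in the wild-type and 10.6 CPM in the knockout library) and -0.33 in macrophage-like cells, a difference of 1.29, with 4 classes above and 1 below. For Aldoa it was 0.45 in plasma-like and -1.12 in endothelial-like cells, a difference of 1.56, with 1 class above and 10 below.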

How the results depend on the processing

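Under 16 alternatives (14 planned and 2 chosen after seeing the data), the endothelial Pgk1 log2 ratio ran from -1.26 to -1.04. It left the main counting interval with cells thinned to 1000 UMIs (-1.04), which by construction uses fewer UMIs and leaves out 120 wild-type and 103 knockout cells; the cause was not tested. The median of the 10 genes ran from -1.03 to -0.77, and 8 or 9 of them were lower by at least 1.5-fold. The other 30 results gave 445 values, of which 421 stayed within the main counting interval and 24 moved out of it. Of the 445, 0 changed the sign of a called value. For medians, this interval was centred on the main median and had the median width of the gene intervals. Slc2a1 (-0.11 to 0.40) and Hk2 (-0.82 to 0.02) changed sign within or near counting error, and Pgk1 in plasma-like cells ran from -0.61 to 0.42, the highest with a per-cell gate that left 27 and 25 cells. Of 1416 enzyme ratios over classes and settings, 1384 were below 0. Most of the 32 exceptions were in plasma-like cells, and the rest came with the per-cell gate or thinning. With a minimum of 100 UMIs the endothelial background was 11.4%. Depth limits Slc2a1, Hk2 and Eno1 most, and the plasma-like class with 53 and 56 cells.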

Other observations

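The median ratio of the nuclear-encoded respiratory chain was lowest in endothelial-like cells (-0.65) and mesenchymal-like cells (-0.57) and nearest 0 in plasma-like cells (-0.17). The reference genes had a median of -0.48 in endothelial-like, -0.44 in cholangiocyte-like and -0.03 in plasma-like cells. Heat shock genes had medians above 0 in each of the 11 classes, from 0.42 in mesenchymal-like to 1.46 in plasma-like cells. The other glycolysis genes had medians from -0.29 in endothelial-like to 0.18 in mesenchymal-like cells, while the 10 genes had a median of -0.61 in mesenchymal-like cells.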
